A study of Mus musculus with 6 samples.

Results

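The 10 genes described here encode G-protein coupled receptors: the retinoic acid-inducible orphan receptors Gprc5a, Gprc5b and Gprc5c, the incretin receptor Gipr, the orphan receptor Gpr83, the lipid and proton sensors Gpr18, Gpr65 and Gpr132, and the prostaglandin E2 receptors Ptger2 and Ptger4. They were chosen by name, with Gipr selected on its large rise in these same arrays, and Gprc5a had been picked by the study from these arrays together with a target prediction. Gipr is therefore given as a description with no test, and the values of Gprc5a are not independent evidence of its direction. The array carried 16 probes named for these genes among 41174, and each probe is given, numbered from the brightest probe of its gene. Of the 16 probes, 12 stood well above background on 3 or more of the 6 arrays and entered the fit, among 22281 such probes. Gipr probe 1 is one of them and is left out of every count of calls and every median below, which leaves 11 tested receptor probes. Gprc5a probe 2 and Gprc5c probe 1 entered through their 3 cKO arrays, the genotype in which they were higher, so their tests support no direction.

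The study asked which transcripts differ when the microRNA miR-31 is absent from induced regulatory T (iTreg) cells. The cKO mice carried a floxed miR-31 allele and CD4Cre, a Cre recombinase driven by the CD4 promoter and therefore active in T cells from their development in the thymus, and the control mice were miR-31 fl/fl without it, as the methods describe them. All were of C57BL/6 background, with the controls matched to the cKO mice for an age of 6 weeks, and each genotype was represented by 3 mice with 1 array each. Naive splenic T cells, sorted as CD4+, CD25-, CD62Lhi and negative for a Foxp3-GFP reporter, were cultured for 4 days on 5 μg/ml bound anti-CD3 and given soluble anti-CD28 (2 μg/ml), IL-2 (40 ng/ml) and TGF-β1 (5 ng/ml). RNA (0.5 μg) was labelled with Cy3 and hybridized to one-colour Agilent arrays.

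Every level below is the log2 signal of a probe minus the array's 75th percentile, so that 0 stands for that percentile, and every difference is cKO minus control on the same log2 scale. The 75th percentile lay between 987 and 1148 intensity units, 49.3% to 57.7% of spots stood well above background and 0 spots were saturated. The 3 cKO arrays and control array 1 shared a slide and scan, and control arrays 2 and 3 lay on another, so genotype and slide were partly confounded. A slide-matched difference, the cKO mean minus control array 1, is given beside the results. The arrays carried T cell markers, with 8 of 8 markers tested, and their summed linear signal was 262 to 330 times the 75th percentile in cKO and 244 to 257 in control cells. Cd4 averaged 0.04 in cKO and −0.63 in control cells, and the CD8 T cell marker Cd8b1 1.72 and 1.89. These markers therefore do not tell CD4 from CD8 T cells. No probe was named for miR-31 (0 of 41174), so the deletion itself could not be checked. The numbers of arrays limited the precision of every value.

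G-protein coupled receptors pass a signal from outside the cell to heterotrimeric G proteins, which raise or lower the second messenger cyclic AMP (cAMP) or act on other effectors. In T cells a rise in cAMP activates protein kinase A, dampens signalling from the T-cell receptor and drives transcription through CREB. Prostaglandin E2, incretins and extracellular protons act through receptors that raise cAMP, whereas the Gprc5 receptors have no settled ligand and were first known as genes induced by retinoic acid. A microRNA pairs with transcripts through its seed, bases 2 to 8 from its 5′ end, and lowers their level or translation.

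The mature sequences of the deleted microRNA are shown because their seeds set which transcripts it can pair with. They are from RefSeq (GRCm38.p6, minus strand, chr4:88910614-88910635 for the 5p arm and chr4:88910577-88910599 for the 3p arm), with the seed in capitals.
mmu-miR-31-5p: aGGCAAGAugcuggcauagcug
mmu-miR-31-3p: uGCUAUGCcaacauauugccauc
The DNA letters that pair with the 5p seed, TCTTGCC, were in 0 of the 16 receptor probes and in 0.323% of all probes, and GGCAAGA on the opposite strand was in 0 of 16 and 0.427%. For the 3p seed, GCATAGC was in 0 of 16 and in 0.143% of all probes, and GCTATGC in 0 of 16 and 0.238%. These counts describe the probe windows alone and not the rest of each transcript.

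Across the receptors, both Gpr83 probes were 3.99-fold and 5.17-fold lower in cKO iTreg cells, and both Gprc5a probes were 1.96-fold and 4.01-fold higher. Gprc5c was higher at its only detected probe, and Gipr was higher on every cKO array at its brightest probe. Ptger2, Ptger4 and Gpr18 differed by 0.19 or less on the log2 scale, and Gprc5b, Gpr65 and Gpr132 had groups that overlapped. After Benjamini-Hochberg adjustment in limma 0 of the 11 tested probes were under 0.05, against 0.13% of all tested probes. At an unadjusted p under 0.05 limma called 5 of them, against 23.0% of all tested probes, and the methods' t-test called 5 unadjusted and 0 adjusted. The study's threshold, a fold above 3.5 with an unadjusted p under 0.05, was met by 1 probe that was higher (Gprc5a probe 2), against 0.723% of all tested probes, and by 2 that were lower (both of Gpr83), against 0.251%. All cKO arrays were above all control arrays at 3 of the 11 probes, against 16.2% of all tested probes, and below at 2 of 11, against 20.3%. Nothing was read from these shares, since Gprc5a was picked on the same comparison and 2 of the higher probes entered the test through their cKO arrays. The median difference of the 11 probes was 0.49, and that of all tested probes was −0.04. In bulk RNA such as this, fewer cells of a type and less RNA per cell cannot be told apart.

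**Figure D1:**
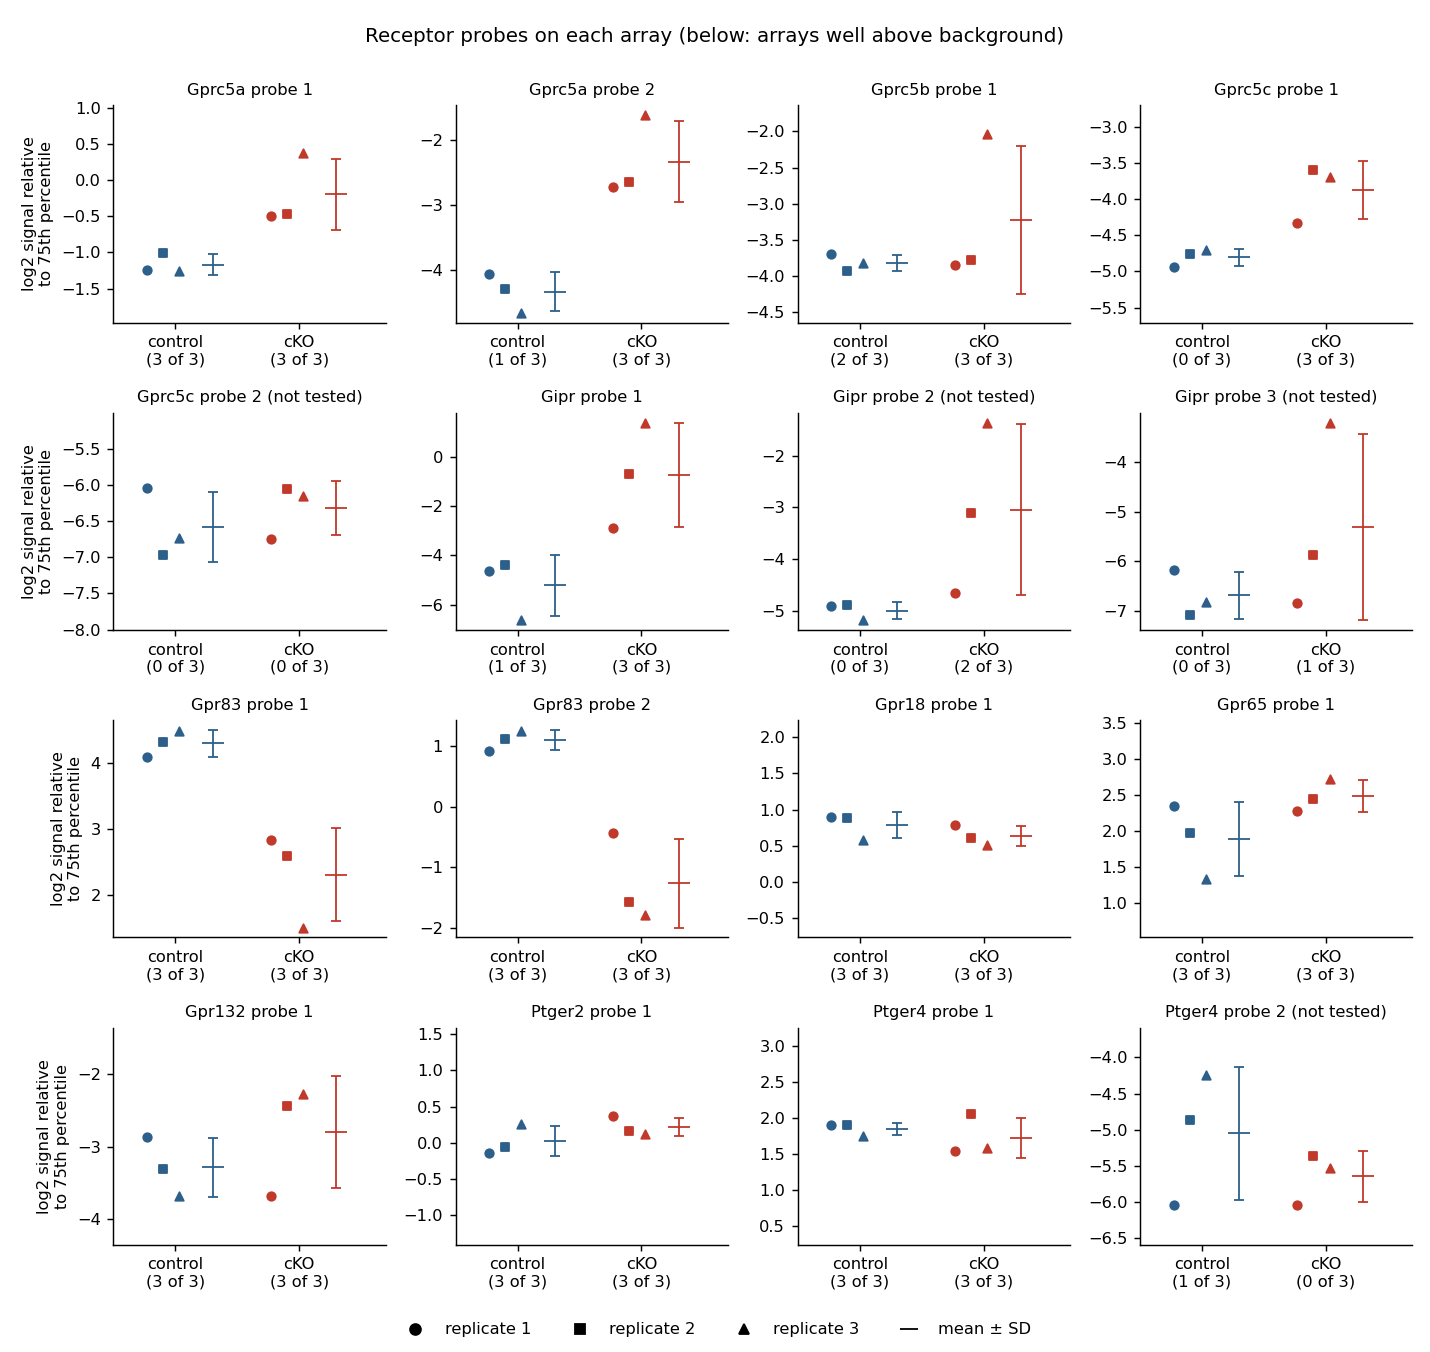
Each panel plots 1 probe, with log2 signal minus the 75th percentile of the array on a vertical axis of its own for control (blue) and cKO (red) arrays, a point for each array by replicate, and the mean ± SD of 3 arrays beside them. The number of arrays well above background stands under each group, and the control and cKO points do not overlap for Gprc5a, Gprc5c probe 1, Gipr probes 1 and 2 and Gpr83.

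**Figure D2:**
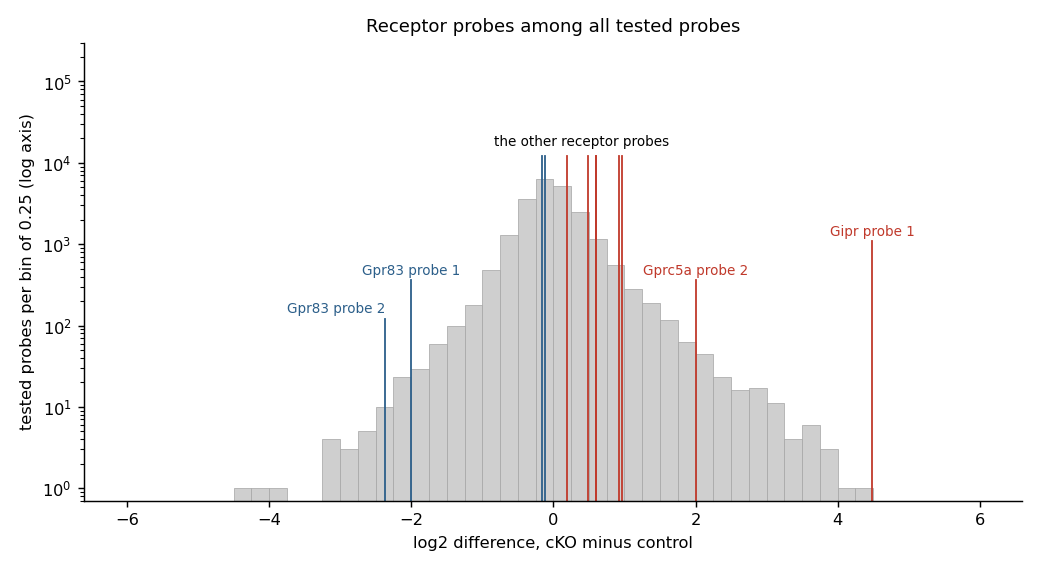
Grey bars count the 22281 tested probes in bins of log2 difference, cKO minus control, on a logarithmic vertical axis, and coloured lines mark the 12 receptor probes of the fit. Gipr probe 1 lies at 4.49, at the right end of all probes, Gprc5a probe 2 at 2.00, and the Gpr83 probes at −2.0 and −2.37, while the others lie between −0.16 and 0.97.

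Gprc5a encodes an orphan receptor of class C that retinoic acid induces and that is best known from lung epithelium. Its brighter probe (probe 1, NM_181444, mm9 chromosome 6, 135034590 to 135034649) read −0.50, −0.47 and 0.37 on cKO arrays 1 to 3 and −1.24, −1.01 and −1.26 on control arrays 1 to 3. All 3 cKO arrays were above the controls, with cKO array 3 the highest. The difference was 0.97 (standard error 0.26, 95% interval 0.35 to 1.59, adjusted p = 0.14 from limma), and the slide-matched difference was 1.05. The dimmer probe (probe 2, chromosome 6, 135034502 to 135034561) read −2.73, −2.64 and −1.61 in cKO and −4.05, −4.29 and −4.65 in control cells. Signal cleared background on 3 cKO arrays but on 1 control array alone, and the groups again did not overlap. Its difference was 2.00 (95% interval 1.20 to 2.81, adjusted p = 0.078, after entry through the cKO arrays), with a slide-matched difference of 1.72, under the fold of 3.5. Without cKO array 3 it was 1.65, also under that fold, and after normexp correction of the background with quantile normalization it was 0.96. The changes at the Gprc5a probes differed by −1.03 (probe 1 minus probe 2, exact permutation test, two-sided p = 0.10, the smallest that 3 arrays against 3 allow, adjusted p = 0.30 over 6 pairs of probes).

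Gprc5b and Gprc5c are the paralogues of Gprc5a that retinoic acid also induces. Gprc5b (NM_022420, chromosome 7, 126115825 to 126115884) read −3.84, −3.78 and −2.04 in cKO and −3.70, −3.93 and −3.82 in control cells. Only cKO array 3 was high, and cKO arrays 1 and 2 lay among the controls. Signal cleared background on 3 cKO and 2 control arrays. The difference was 0.60 (standard error 0.49, 95% interval −0.59 to 1.78, adjusted p = 0.46), and without cKO array 3 it was 0.01. Gprc5c probe 1 (NM_001110337, chromosome 11, 114733214 to 114733273) read −4.33, −3.60 and −3.69 in cKO and −4.93, −4.76 and −4.71 in control cells. Its signal cleared background on 3 cKO arrays and on 0 control arrays, and its groups did not overlap. As scaled here, the cKO level was at least 1.90-fold higher. The control mean was taken, array by array, as the higher of the probe's own value and the lowest signal well above background. Each control value lay above that lowest signal, so the bound equals the measured difference, which some other settings lowered. It does not allow for the spread between arrays. The adjusted p was 0.12, on a probe that entered the test through its cKO arrays alone, and the slide-matched difference was 1.06. After the same normexp and quantile steps it was 0.31. Gprc5c probe 2 (NM_147217, chromosome 11, 114730346 to 114730405) was not well above background on any of the 6 arrays and has no comparison. Of the Gprc5 family, Gprc5d was on the array but was not tested either. The change of Gprc5a probe 1 exceeded that of Gprc5b by 0.37 (exact permutation p = 0.40, adjusted p = 0.60) and that of Gprc5c by 0.05 (exact permutation p = 0.90, adjusted p = 1.0). With a smallest possible p of 0.10, these comparisons of probes could not pass 0.05 and do not show that the paralogues changed alike.

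Among markers of epithelial cells, in which Gprc5a is best known, Cdh1 and Epcam were well above background on every array. Cdh1 averaged 0.01 in cKO and −1.01 in control cells, and Epcam −0.98 and −1.60. Of the 10 epithelial markers, 4 were tested, Krt8, Krt19, Cldn3, Muc1 and Elf3 were not well above background on any array, and the summed linear signal of the list was 1.72 to 2.27 times the 75th percentile in cKO and 1.15 to 1.21 in control cells. Cdh1 and Epcam were the tested epithelial markers with groups apart, both higher in cKO, by 1.02 (adjusted p = 0.14) and 0.62 (adjusted p = 0.16). That is 2 of the 4, against 16.9% of all genes tested. Groups overlapped at the other tested markers, Krt18 (difference 0.45) and Cldn7 (0.06). The part of these markers in the Gprc5a and Gprc5c values was not tested. The sums for erythroid markers were 0.584 to 1.20 in cKO and 0.272 to 0.459 in control cells, with Alas2, Ahsp and Epb4.2 not well above background on any array. The ranges for B cell markers (0.767 to 2.01 and 0.485 to 0.887) overlapped between genotypes, as did those for myeloid markers (0.605 to 0.771 and 0.744 to 1.13). CD8 T and NK cell markers summed to 5.23 to 5.32 in cKO and 5.71 to 6.95 in control cells.

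The 5 genes whose brightest tested probe followed Gprc5a probe 1 most closely over the 6 arrays were Mpzl3, Zfp618, Gnb5, Snapin and Nupr1l, with Pearson's r of 0.997 to 0.998. Their differences were 0.79, 1.23, 0.61, 0.35 and 1.37, respectively. The 6 points share the split between genotypes, so these values are a description. Among the receptors, Gpr83 probe 1 ran opposite to Gprc5a, with r = −0.97 over the same 6 arrays.

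Gipr encodes the receptor for glucose-dependent insulinotropic polypeptide, a gut hormone that raises insulin secretion through cAMP, and was chosen for its rise. Its brightest probe (NM_001080815, chromosome 7, 19742486 to 19742545) read −2.87, −0.68 and 1.37 in cKO and −4.62, −4.40 and −6.63 in control cells. Its signal cleared background on all 3 cKO arrays and on 1 of the controls, and no cKO array overlapped the controls. The difference was 4.49, or 4.34 with values under the lowest signal well above background of their array raised to it, which moved control array 3. The slide-matched difference was 3.89. The cKO arrays alone spanned 4.24 on the log2 scale, the widest range of any receptor probe here. After normexp correction with quantile normalization the difference was 2.30, and without cKO array 3 it was 3.44.

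The other Gipr probes lay elsewhere in the gene and were too dim on most arrays for the test. Each has 60 letters but is placed on a longer stretch of the mm9 genome (minus strand), 186 bases for probe 2 (chr7:19745183-19745368) and 598 bases for probe 3 (chr7:19748312-19748909), so that each matches a transcript from which the bases between have been removed. They are shown because they report the spliced Gipr transcript, and each holds no stop codon in 2 of its reading frames.
Gipr probe 2: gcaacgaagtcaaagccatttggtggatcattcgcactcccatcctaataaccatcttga
Gipr probe 3: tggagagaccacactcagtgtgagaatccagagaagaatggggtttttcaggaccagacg
Probe 2 read −4.67, −3.12 and −1.36 in cKO and −4.92, −4.90 and −5.19 in control cells. Signal cleared background on 2 cKO arrays and on 0 control arrays. As scaled here, the cKO mean was 3.87-fold higher. This is the measured difference and no lower limit, since not every cKO array cleared background. At this probe cKO array 1 was 0.25 above control array 1, and cKO array 3 was 3.56 above it. Probe 3 read −6.84, −5.87 and −3.20 in cKO and −6.17, −7.08 and −6.82 in control cells. Only cKO array 3 was well above background, and cKO array 1 lay below control array 1, so no fold between the genotypes is given. On all 3 probes the cKO arrays kept the order of array 1 lowest and array 3 highest.

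Of the incretin and glucagon family of 11 genes, 5 beside Gipr were tested, 3 higher and 2 lower, against 45.7% of all genes higher. Groups did not overlap at 1 higher and 1 lower gene, against 16.9% and 21.0% of all genes, and the receptors Glp1r and Glp2r and the hormones Gip and Gcg were not detected well enough to test. The receptors for vasoactive intestinal peptide lay on opposite sides. Vipr2 read −1.87, −2.02 and −1.73 in cKO and −3.44, −2.98 and −3.81 in control cells (difference 1.53, standard error 0.22, adjusted p = 0.068). Every cKO array was above the controls at Vipr2, all 6 arrays were well above background, and the slide-matched difference was 1.56. After normexp correction with quantile normalization it was 0.89. Vipr1 was the lower gene with groups apart, at −3.54, −3.89 and −3.56 in cKO and −3.16, −3.35 and −2.79 in control cells (difference −0.56, standard error 0.18, adjusted p = 0.17). The Vipr1 difference was 0.33 under normexp correction with 75th-percentile scaling.

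Gpr83 encodes an orphan receptor of brain and of regulatory T cells, where its transcript accompanies Foxp3, and it had the clearest lower level in cKO cells among these receptors. Its brighter probe (NM_010287, chromosome 9, 14673600 to 14673659) read 2.83, 2.59 and 1.50 in cKO and 4.09, 4.32 and 4.49 in control cells. On this probe all 3 cKO arrays were below the controls, with a gap of 1.27 between the nearest arrays of the genotypes. The difference was −2.0 (standard error 0.35, 95% interval −2.86 to −1.14, adjusted p = 0.089 from limma), a 3.99-fold lower level, and ranked 49 among the falls of all tested probes. Probe 2, annotated with another transcript (ENSMUST00000115624, chromosome 9, 14674641 to 14674700), read −0.44, −1.57 and −1.80 in cKO and 0.93, 1.11 and 1.25 in control cells. Its difference was −2.37 (standard error 0.36, 95% interval −3.24 to −1.50, adjusted p = 0.069), a 5.17-fold lower level, and ranked 21 among the falls. Both probes were well above background on all 6 arrays, and their changes differed by 0.37 (exact permutation p = 0.10, adjusted p = 0.30 over 6 pairs).

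On the shared slide, the cKO arrays lay below control array 1 by −1.27, −1.50 and −2.59 at Gpr83 probe 1 and by −1.37, −2.50 and −2.73 at probe 2. With the slide as a term the difference was −1.79 at probe 1 (adjusted p = 0.55), under the fold of 3.5, and −2.20 at probe 2 (adjusted p = 0.47). Probe 1 was also under that fold without cKO array 3, at −1.59. With weights for the arrays, both probes passed the adjusted threshold (adjusted p = 0.028 for each). In that setting 656 of all tested probes passed, against 29 without weights. Over all settings the difference stayed between −2.26 and −1.59 at probe 1 and between −2.79 and −1.86 at probe 2.

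Gpr83 was itself among the 10 regulatory T cell markers, all of which were tested. Of these, 5 were higher and 5 lower, 0 passed the adjusted threshold (4 had an unadjusted p under 0.05, 1 higher and 3 lower, against 23.5% of all genes), and the median difference was −0.10. Gpr83 was the only one of the 10 past the fold of 3.5. Foxp3, the defining transcription factor of the lineage, was 2.98 ± 0.39 in cKO and 3.59 ± 0.19 in control cells (SD, n = 3), a difference of −0.61 (standard error 0.22, adjusted p = 0.19), with its groups apart. Ctla4, an inhibitory receptor of regulatory T cells, differed by 0.94 in the other direction (adjusted p = 0.14). The summed signal of the list was 201 to 225 times the 75th percentile in cKO and 173 to 215 in control cells, so the genotypes overlapped.

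Gpr65 and Gpr132 are related receptors, of which the former senses extracellular protons and raises cAMP and the latter responds to lysolipids and oxidized fatty acids. Gpr65 (NM_008152, chromosome 12, 99514727 to 99514786) read 2.27, 2.45 and 2.72 in cKO and 2.35, 1.97 and 1.34 in control cells. Control array 1 lay within the cKO range and control array 3 was the lowest. The difference was 0.59 (standard error 0.27, 95% interval −0.07 to 1.26, adjusted p = 0.24), with a slide-matched difference of 0.13 and one of 0.32 without control array 3. Gpr132 (NM_019925, chromosome 12, 114090862 to 114090921) read −3.68, −2.44 and −2.26 in cKO and −2.86, −3.31 and −3.67 in control cells. The groups overlapped over the whole control range. The difference was 0.49 (standard error 0.41, 95% interval −0.52 to 1.50, adjusted p = 0.48), the slide-matched difference was 0.07, and leaving out single arrays moved the value from 0.22 (cKO array 3 dropped) to 0.93 (cKO array 1 dropped). The changes of the 2 genes differed by 0.11 (exact permutation p = 1.0, adjusted p = 1.0).

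Gpr18, a lipid-responsive receptor of lymphocytes, was read by 1 probe (NM_182806, chromosome 14, 122311608 to 122311667). It read 0.78, 0.61 and 0.51 in cKO and 0.90, 0.89 and 0.59 in control cells, which overlapped. The difference was −0.16 (standard error 0.14, 95% interval −0.49 to 0.17, adjusted p = 0.49), so that the interval excludes a change of 3.5-fold in either direction. On the shared slide it was −0.27, and with single arrays left out it lay between −0.26 and −0.10.

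Of the proton- and lysolipid-sensing receptors that include Gpr18, Gpr65 and Gpr132, 16 of 20 were tested, 12 higher and 4 lower, against 45.7% of all genes higher. An adjusted p under 0.05 was seen at 0 of them and an unadjusted one at 3, against 23.5% of all genes. Their median difference was 0.35, against −0.04 over the 14357 genes tested. Lpar2, a lysophosphatidic acid receptor, had the largest rise among those with groups apart, from −4.35, −4.51 and −4.62 in control to −3.90, −4.08 and −3.33 in cKO cells (difference 0.72, standard error 0.21, adjusted p = 0.16), with 2 cKO arrays and 1 control array well above background. Lpar5, another receptor of that lipid, had the largest lower level, with −4.83, −5.12 and −4.69 in cKO and −2.43, −4.16 and −4.40 in control cells. Signal at Lpar5 cleared background on 1 cKO array and on all 3 controls, through which it entered the test. Control array 1 alone was high, and the difference of −1.22 (standard error 0.52, adjusted p = 0.22) turned to 0.14 under normexp correction with 75th-percentile scaling.

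Ptger2 and Ptger4 encode the prostaglandin E2 receptors that raise cAMP and are the main ones on T cells. Ptger2 (NM_008964, chromosome 14, 45622004 to 45622063) read 0.36, 0.16 and 0.12 in cKO and −0.14, −0.05 and 0.26 in control cells. Control array 3 lay within the cKO range, and the difference was 0.19 (standard error 0.14, 95% interval −0.15 to 0.54, adjusted p = 0.42), or 0.36 on the shared slide. Ptger4 probe 1 (NM_008965, chromosome 15, 5184419 to 5184478) read 1.55, 2.05 and 1.58 in cKO and 1.90, 1.90 and 1.75 in control cells. The cKO arrays lay on both sides of the controls, and the difference was −0.12 (standard error 0.16, 95% interval −0.52 to 0.27, adjusted p = 0.65), or −0.17 on the shared slide. The intervals of both genes exclude a change of 3.5-fold in either direction. With single arrays left out Ptger2 lay between 0.11 and 0.31 and Ptger4 probe 1 between −0.29 and −0.04. Ptger4 probe 2 (ENSMUST00000133966, chromosome 15, 5156675 to 5156734) was well above background on control array 3 alone, where it read −4.25, and was not tested. The changes of Ptger2 and Ptger4 probe 1 differed by 0.32 (exact permutation p = 0.20, adjusted p = 0.40).

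**Figure D3:**
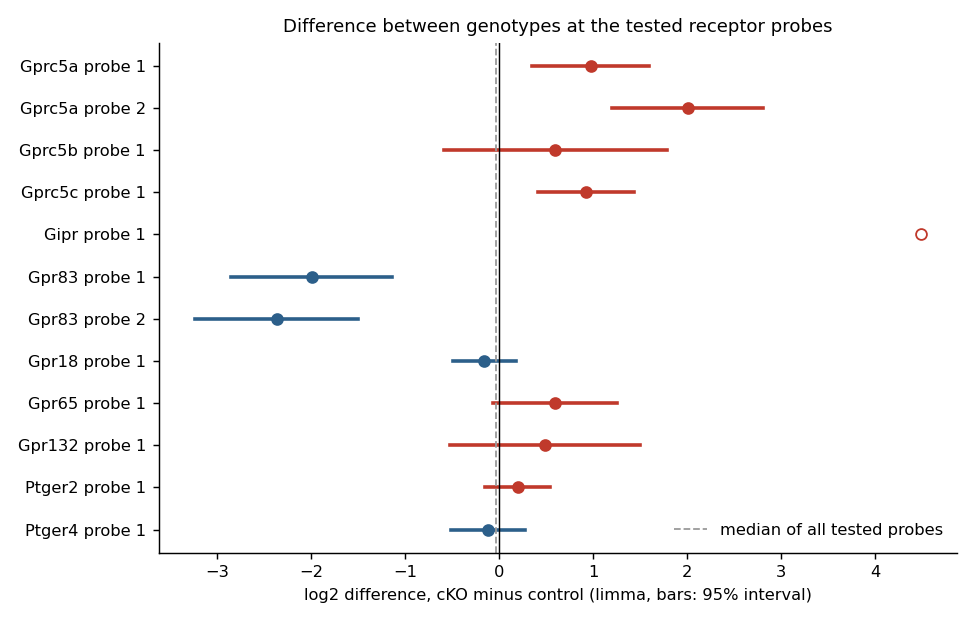
Points give the log2 difference, cKO minus control, of each of the 12 receptor probes in the fit, with bars for the 95% interval from limma, and the dashed line is the median of all tested probes. The intervals of Gprc5a, Gprc5c and Gpr83 lie to one side of 0, Gprc5a probe 2 and Gprc5c having entered the test through their cKO arrays, those of Gprc5b, Gpr18, Gpr65, Gpr132, Ptger2 and Ptger4 cross it, and Gipr, chosen for its rise, is drawn open and without an interval.

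Of the 9 prostanoid receptors, 5 were tested, 2 higher and 3 lower, and Ptger1, Ptger3, Ptgdr and Ptgfr were not detected well enough to test. Tbxa2r, the thromboxane receptor, was the receptor of this list with groups apart, at 2.78, 2.44 and 2.95 in cKO and 2.11, 2.21 and 2.18 in control cells (difference 0.56, standard error 0.15, adjusted p = 0.14). Of the 9 genes for the synthesis, transport and breakdown of prostaglandin E2, 5 were tested, and every cKO array was below every control array at all 5, against 21.0% of all genes tested. The gap was narrow at Ptges2, with the highest cKO array at 1.035 and the lowest control array at 1.044. It was also narrow at Ptges3, at 2.507 and 2.520. Their median difference was −0.38, against −0.04 over all genes tested, 3 had an unadjusted p under 0.05, against 23.5% of all genes, and 0 passed the adjusted threshold. Ptgs1, the constitutive cyclooxygenase that makes the prostaglandin precursor, had the largest difference, from −2.29, −2.57 and −2.15 in control to −3.21, −3.32 and −3.26 in cKO cells (−0.93, standard error 0.14, adjusted p = 0.068). It was −0.97 on the shared slide and −0.04 under normexp correction with 75th-percentile scaling. The inducible cyclooxygenase Ptgs2, the synthase Ptges and the degrading enzyme Hpgd were not tested.

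Other receptors of lymphocytes outside the chemokine family, a list that holds Gpr83, had 18 of 28 genes tested, 13 higher and 5 lower, with a median difference of 0.28. Beside Gpr83, the genes past the fold of 3.5 were Gpr160 and F2rl1, against 0.864% of all genes tested for a higher level and 0.293% for a lower one. Gpr160, an orphan receptor, read 0.19, 0.80 and 1.59 in cKO and −1.17, −1.58 and −2.55 in control cells (difference 2.63, standard error 0.47, adjusted p = 0.091, slide-matched 2.03), and was past the fold in all 20 other settings tried. F2rl1, a receptor that proteases activate, read −1.98, −2.90 and −2.23 in cKO and −6.04, −6.52 and −3.50 in control cells, and cleared background on all 3 cKO arrays and on 1 of the controls. F2rl1 entered the test through its cKO arrays, and its difference was 2.98 (adjusted p = 0.14), 2.76 with values raised to the lowest signal well above background of their array, or 1.09 under normexp correction with quantile normalization. At both genes every cKO array was above every control array.

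Downstream of the receptors, 10 of 13 G protein alpha subunit genes were tested, with a median difference of −0.03. The subunit that raises cAMP, Gnas, differed by −0.03, and the largest differences with groups apart were those of Gna13 (0.41, standard error 0.14, adjusted p = 0.18) and Gnaq (−0.41, standard error 0.14, adjusted p = 0.18). Of the genes that make or break down cAMP, 11 of 19 were tested, 8 higher and 3 lower, 0 past the adjusted threshold and 4 with an unadjusted p under 0.05, against 23.5% of all genes, with a median of 0.41. Among the adenylyl cyclases of this list, Adcy6 had the largest rise with groups apart (0.66, standard error 0.20, adjusted p = 0.16) and Adcy9 the largest fall (−1.17, standard error 0.31, adjusted p = 0.14). Adcy9 read −0.31, −1.01 and −1.03 in cKO and 0.10, 0.13 and 0.94 in control cells.

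Of the cAMP effectors, 15 of 17 were tested, 10 higher and 5 lower, and 1 passed the adjusted threshold, against 0.167% of all genes. Prkar2b, a regulatory subunit of protein kinase A, fell from 0.57, 0.55 and 0.85 in control to −0.97, −0.65 and −1.0 in cKO cells, a difference of −1.53 (standard error 0.15, adjusted p = 0.046). Its difference stayed between −1.64 and −1.32 over the settings, but the call was lost with the slide as a term (adjusted p = 0.30) and with the replicate number as a block (adjusted p = 0.23). The call was also lost with the methods' t-test, without a filter on dim probes and under normexp correction with 75th-percentile scaling. With each of the 6 arrays left out it was lost as well. Rapgef3, an exchange factor that cAMP activates directly, was past the fold of 3.5, at −2.30, −1.40 and 0.92 in cKO and −3.09, −3.56 and −4.27 in control cells (difference 2.71, standard error 0.83, adjusted p = 0.16). Without cKO array 3 its difference was 1.79, under that fold. The list's median difference was 0.28.

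Of the CREB target genes, 14 of 15 were tested, 12 higher and 2 lower, with a median difference of 0.31. Of the 14, 6 had an unadjusted p under 0.05, 4 higher and 2 lower, against 23.5% of all genes, and 0 passed the adjusted threshold. Fosl2, an AP-1 subunit, was the highest with groups apart, at −2.25, −1.72 and −1.12 in cKO and −2.80, −3.03 and −3.77 in control cells (difference 1.50, standard error 0.36, adjusted p = 0.13). Areg, an epidermal growth factor-like ligand, read −4.76, −4.22 and −4.36 in cKO, on 0 arrays well above background, and −3.35, −3.50 and −3.17 in control cells. Areg entered the test through its control arrays alone, and as scaled here its level was at least 2.16-fold higher there (adjusted p = 0.070). This bound equals the measured difference and does not allow for the spread between arrays. The sign of the difference turned, to 0.38, under normexp correction with 75th-percentile scaling.

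Among regulators of receptor signalling, 7 of 8 receptor kinases and arrestins were tested, with a median of −0.10. Arrb1, a beta-arrestin that uncouples and internalizes receptors, read 3.81, 4.28 and 5.04 in cKO and 3.35, 3.36 and 2.59 in control cells (difference 1.28, standard error 0.37, adjusted p = 0.15). The kinase Grk4 had the largest lower value with groups apart, −0.23 (standard error 0.11, adjusted p = 0.26), which was 0.51 under normexp correction with 75th-percentile scaling. Of the RGS proteins, which shorten G protein signals, 10 of 15 were tested, 8 higher and 2 lower, with a median of 0.22. Rgs9 was past the fold of 3.5, at −2.70, −2.79 and −1.28 in cKO and −3.71, −4.00 and −4.92 in control cells (difference 1.96, standard error 0.50, adjusted p = 0.14), with all 3 cKO arrays, through which it entered the test, and 1 control array well above background. It was 1.46 on the shared slide, 1.47 without cKO array 3 and 1.60 without control array 3, each under that fold. Rgs1 was the lowest, at −0.39 (standard error 0.12, adjusted p = 0.16).

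Since the Gprc5 receptors are induced by retinoic acid, its receptors and response genes were listed as well. Of the 21, 13 were tested, 9 higher and 4 lower, 0 past the adjusted threshold and 6 with an unadjusted p under 0.05, against 23.5% of all genes, with a median of 0.18. The nuclear receptor genes Rara, Rarg, Rxra and Rxrb differed by 0.12, 0.18, −0.53 and 0.13. Tgm2, a transglutaminase that retinoic acid induces, read 2.40, 3.48 and 3.95 in cKO and 2.22, 1.43 and −0.87 in control cells (difference 2.35, standard error 0.84, adjusted p = 0.19). Control array 3 was far below the other controls at Tgm2, and the difference was 1.45 without it and 1.05 on the shared slide. Rdh10, which makes retinal from retinol, read 2.63, 2.27 and 1.76 in cKO and 2.96, 3.13 and 3.37 in control cells (difference −0.93, standard error 0.24, adjusted p = 0.14).

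**Figure D4:**
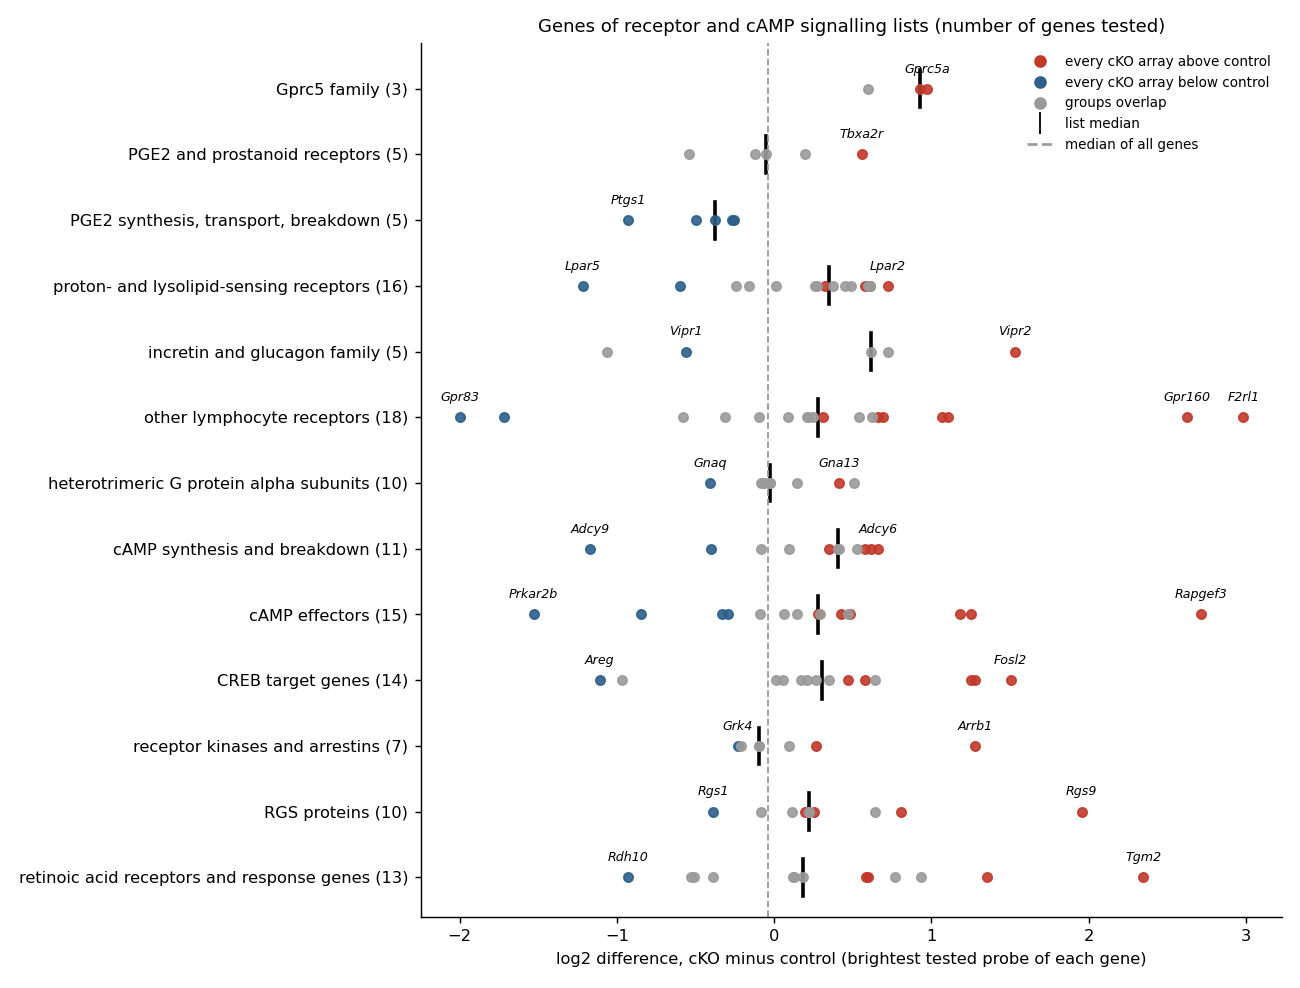
Each point is a gene, placed by the log2 difference, cKO minus control, of its brightest tested probe within each of 13 lists of receptor and cAMP signalling genes, Gipr left out, with the number of genes tested in brackets, list medians as black bars and the median of all genes as a dashed line. Red and blue points have groups that do not overlap, and the genes of prostaglandin E2 synthesis, transport and breakdown are all blue, Ptges2 and Ptges3 by narrow gaps.

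**Figure D5:**
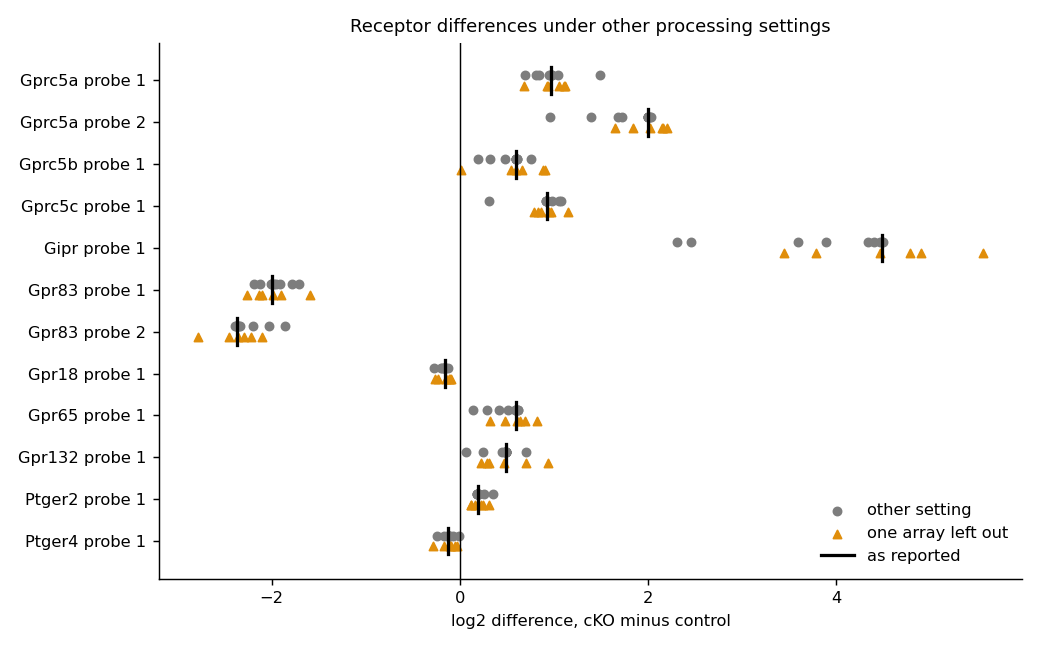
For each of the 12 receptor probes in the fit, the black bar is the log2 difference as reported, grey points are other processing settings and orange triangles are values with 1 array left out. The Gpr83 values lie between −2.79 and −1.59 throughout, whereas Gprc5b reaches 0.01 without cKO array 3 and Gipr spans 2.30 to 5.56.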

How the data were processed

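Gene expression in iTreg cells of 3 cKO and 3 control mice was read on 1 Agilent one-colour array each. The deposited scanner files hold linear intensity values that the authors obtained with Agilent Feature Extraction (version 9.1 in the submitters' processing notes, 10.7.3.1 in the file headers), with background subtracted on each array and no scaling between arrays. The authors also deposited a table of log2 values, whose columns have medians of 6.15 and Pearson's r of at least 0.998 with the log2 signal of the same array. Its normalization is not given in the sources used here. The labels give 40 ng/ml IL-2 and the miRNeasy Micro kit, and the methods state another IL-2 concentration and kit.

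Here, spots marked as outliers (123 to 140 per array) were dropped, spots of a probe were averaged, and the 75th percentile over probes was subtracted on the log2 scale. Probes well above background on at least 3 arrays were fitted with limma 3.58.1 (lmFit and eBayes, R 4.3.3), with Benjamini-Hochberg adjustment over 22281 probes, two-sided. Pairs of probes were compared by exact permutation tests (scipy 1.17.1). Tables and plots used Python 3.11.15, pandas 2.3.3, numpy 2.4.6 and matplotlib 3.10.9, and array weights statmod 1.5.0. The fit was tested on simulated data. Of the 16 receptor probes, 14 have a RefSeq transcript, all matched with the same symbol, and 2 an Ensembl one. Which exon or untranslated part a probe covers was not analysed here.

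The receptors and gene lists were chosen with earlier results of these data known. Named genes are the receptors, the 5 genes most like Gprc5a and, in each list, those past a threshold and the largest rise and fall with groups apart. Gipr was left out of the list counts, and Vipr2, then the largest rise of its list, was added after its values were seen. Cell type markers, and genes given only because they were undetected or are the receptors or subunits a list is named for (Gnas, Rara, Rarg, Rxra, Rxrb), were named outside this rule after their values were seen. Replicates are separate mice. Alternatives were other background corrections and scalings, the authors' table, other filters on dim probes, the mean over a gene's probes, the methods' t-test, eBayes with trend and robust fitting, the slide or replicate number as a term, array weights and each array left out. The 75th percentile over spots and the raising of dim values were added after the data were seen. 0 per-sample columns were unassigned.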

Additional observations from a re-analysis of the deposited data

Results flagged for a closer look

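Gipr, chosen for its rise in these arrays, has probes 2 and 3 outside the test, as they were well above background on fewer than 3 arrays. Probe 2 cleared background on 2 cKO arrays and probe 3 on 1, and both did so on 0 control arrays. Probe 2 reached −1.36 on its highest cKO array with every control array at background. Probe 3 reached −3.20 on its highest cKO array again with every control array at background, but its cKO array 1 lay below control array 1.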

How the results depend on the processing

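Over 21 settings, 221 of the 226 values of the 11 tested receptor probes kept their direction and side of the adjusted threshold and 5 newly passed it, with 0 reversals. These were Gpr83 probe 1 and Gprc5a probe 2 with array weights, and Gpr83 probe 2 with array weights, with quantile normalization after normexp, and with a filter that asks for background to be cleared on all arrays, so that 3, 1 and 1 receptor probes passed there. Gipr, without a test, kept its direction in all 17 values and was 2.30 at its lowest. Of 435 values of the 22 other named list genes, 414 kept theirs, 11 of Prkar2b lost the call, 6 newly passed and 4 reversed, all under normexp with the 75th percentile: Areg 0.38, Grk4 0.51, Lpar5 0.14 and Vipr1 0.33. That setting moved the median of all tested probes to 0.10 from −0.04.

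Of the tested receptor probes, 1 was past the fold of 3.5 upward and 2 downward, against 0 higher with array weights, either normexp setting, the all-array filter or the slide as a term, and 1 lower with array weights or the slide. With an array left out they numbered 0 to 1 higher and 1 to 2 lower, with 0 and 1 without cKO array 3. Every cKO array was above at 1 receptor probe with the all-array filter, and at 3 to 5 with an array left out, 5 without cKO array 1. Smaller groups overlap less readily, and no share of all tested probes was counted in these settings. Nothing was read from these counts.

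Over all tested probes, 29 passed the adjusted threshold, against 54 with the percentile over spots, 57 with dim values raised to the lowest signal well above background, 656 with array weights, 98 with trend and robust fitting, 79 with the median as the scaling point, 112 with normexp and quantile normalization, 175 with the all-array filter, 0 with the methods' t-test, no filter, normexp with the 75th percentile or the slide, and 0 to 1 with an array left out. The share of these calls that were higher was 51.7%, 67.1% with the median, 61.1% over spots and 62.2% with trend and robust fitting. It was lower, at 42.9%, with the authors' table and, at 46.2%, with quantile normalization. Past the fold, 161 were higher and 56 lower, with 246 and 122 without a filter, 54 and 12 after normexp with the 75th percentile, 46 and 14 after normexp with quantiles, 75 and 24 with the all-array filter, 85 lower with the slide, and 91 to 250 higher and 49 to 97 lower with an array left out, the highest without cKO array 1 and the fewest higher without cKO array 3.

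With the replicate number as a block, 0 probes passed the adjusted threshold. The deviations of same-numbered arrays correlated at −0.14, 0.01 and −0.19, so no pairing by number was seen. So few values cannot exclude that same-numbered samples were handled together. The block ended 1 call of a named gene, that of Prkar2b. Signal over background limits Gprc5b, Gprc5c, Gipr, Areg, F2rl1, Rgs9, Lpar2, Lpar5 and Gprc5a probe 2, with at least 1 group below it on some or all arrays.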
